A study of Mus musculus with 6 samples.

Results

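Prostaglandins and leukotrienes are signalling lipids made from arachidonic acid, a fatty acid that phospholipases release from membranes. In the prostaglandin branch, cyclooxygenases turn it into prostaglandin H2, and terminal synthases convert that into prostaglandin E2, prostaglandin D2 or thromboxane. In the leukotriene branch, 5-lipoxygenase works with its membrane partner FLAP to make leukotriene A4, from which leukotriene B4 or the cysteinyl leukotrienes are formed. Myeloid cells are a main source of both kinds of lipid, and in dendritic cells they bear on migration and on the signals given to T cells. The levels below are of RNA, and no lipid was measured.

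The enzymes described here are Alox5, Alox5ap, Alox15, Ltc4s, Ptgs1, Ptgs2, Ptges, Tbxas1 and Hpgds, chosen by gene symbol. Of these 9 genes, 8 had a probe set annotated with that symbol alone, 11 probe sets of 45101 in all, and 8 of the 18193 genes tested. Ptgs1, the constitutive cyclooxygenase, had none in the annotation used and is not analysed here.

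All cells came from the bone marrow of C57BL/6 mice, all were grown with the growth factor GM-CSF, and 2 Affymetrix arrays were run for each of 3 groups. GM-TNFa-DC were dendritic cells, which show antigens to T cells, and were grown out of GM-MPP under GM-CSF together with the inflammatory cytokine TNFa. GM-DC were dendritic cells grown out of GM-MPP under GM-CSF without TNFa. GM-MPP were the multipotent progenitors, cultured in GM-CSF and stem cell cytokines. The labels give no age of the mice, and nothing in them tells whether arrays 1 and 2 stand for different cultures or mice, so a p-value here covers only how far these arrays lie apart, and that spread can be technical. In such bulk samples, fewer cells of a type and less RNA per cell cannot be told apart.

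Values are log2 expression levels, and the array medians lay between 4.67 and 4.77. A level near the median is close to background on such arrays, so a difference against it is compressed. The labels were checked on defining markers. Itgax, which encodes the dendritic cell integrin CD11c, was at 11.59 and 11 on the GM-TNFa-DC arrays and at 11.52 and 10.75 on the GM-DC arrays, against 4.47 and 4.49 on the GM-MPP arrays. Cd34, a progenitor marker, was at 2.86 and 3.54 in GM-TNFa-DC and at 3.16 and 3.59 in GM-DC, against 6.98 and 7.38 in GM-MPP. The summed linear level of its list of 7 stem and progenitor markers was 616 and 259 in GM-TNFa-DC and 732 and 251 in GM-DC, against 3940 and 5140 in GM-MPP. Kit, the stem cell factor receptor, went the other way on number 1, at 8.66 and 5.43 in GM-TNFa-DC and 9.0 and 5.65 in GM-DC, against 7.09 and 7.22 in GM-MPP. The array numbers 1 and 2 separated the dendritic cell arrays: over all genes the deviations of same-numbered GM-TNFa-DC and GM-DC arrays correlated at 0.806, and those of GM-DC and GM-MPP at 0.105. In each group all 24 probe sets for spiked-in poly-A transcripts gave more signal on array 1 than on array 2, with a median ratio of 2.58 in GM-TNFa-DC, 2.13 in GM-DC and 2.43 in GM-MPP. For this reason each value below is given with its array number.

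No enzyme passed the threshold in any of the 3 comparisons (limma, Benjamini-Hochberg adjusted p under 0.05). In GM-TNFa-DC against GM-DC, 0 of 8 passed where 0% of all genes did. An unadjusted p under 0.05 was found for 0 higher and 2 lower, beside 270 higher and 140 lower of all 18193 genes. In GM-TNFa-DC against GM-MPP, 0 of 8 passed where 7.03% of all genes did. Here 1 higher and 3 lower had an unadjusted p under 0.05, beside 2091 higher and 2482 lower of the 18193 genes. In GM-DC against GM-MPP, 0 of 8 passed where 4.5% of all genes did. Before adjustment 2 higher and 0 lower had a p under 0.05, beside 1649 higher and 2272 lower of the 18193 genes. The median log2 difference of the 8 enzymes was -0.44 between GM-TNFa-DC and GM-DC, 0.18 between GM-TNFa-DC and GM-MPP and 0.47 between GM-DC and GM-MPP, beside 0.01, 0.05 and 0.02 over all genes. These comparisons share arrays pairwise and are not independent of each other.

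**Figure D1:**
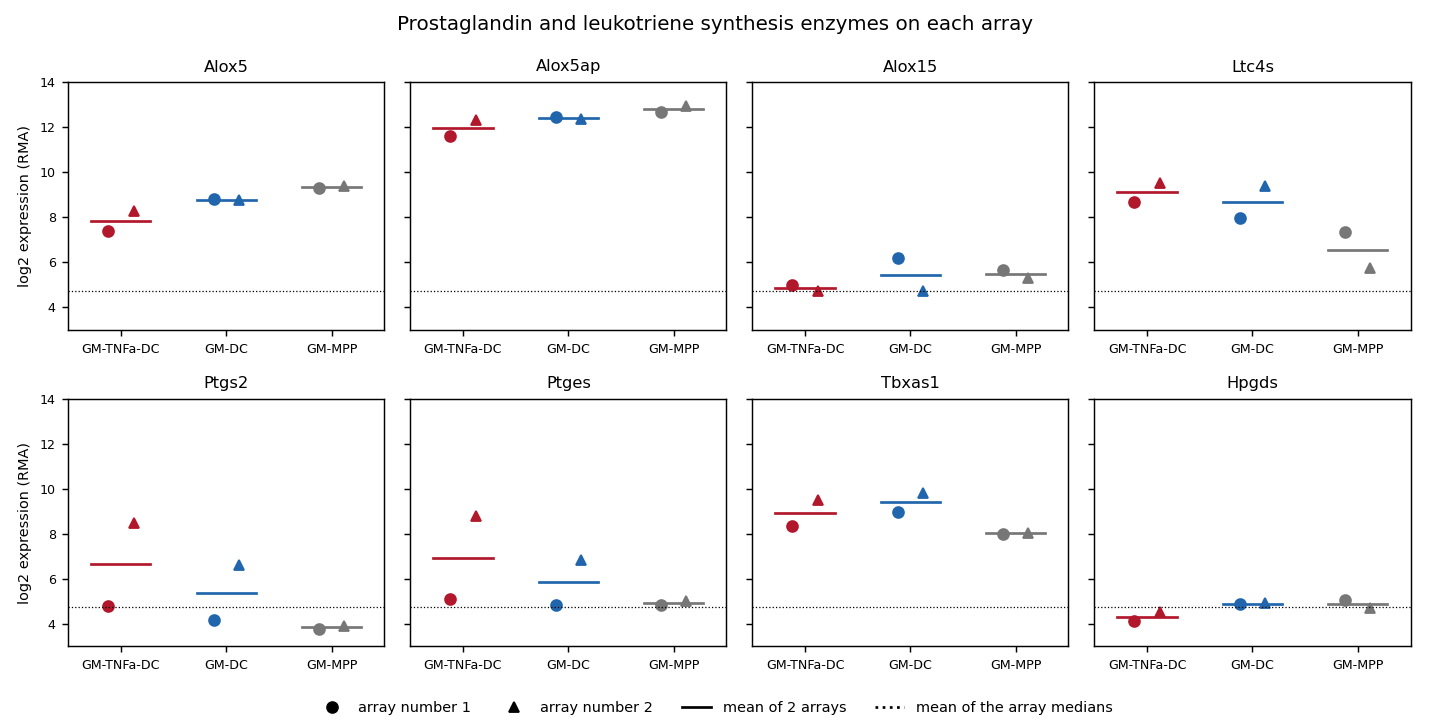
Log2 expression (y axis) of the 8 measured enzymes, each on its probe set with the highest mean, in the 3 groups (x axis). Circles are the number-1 and triangles the number-2 arrays, bars are means of 2 arrays and the dotted line is the mean of the array medians. Ptgs2 and Ptges are high on the number-2 dendritic cell arrays alone, Alox5 and Alox5ap are highest in GM-MPP, and Ltc4s is lowest in GM-MPP.

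The widest range over the arrays was that of Ptgs2, the inducible cyclooxygenase that makes prostaglandin H2. Its level was 4.80 and 8.50 on the number-1 and number-2 arrays of GM-TNFa-DC, 4.18 and 6.60 on those of GM-DC, and 3.79 and 3.93 on those of GM-MPP. Both number-2 dendritic cell arrays were high, and the number-1 arrays exceeded the progenitors by 1.01 in GM-TNFa-DC and 0.39 in GM-DC, where the progenitors were below the array median. Number 2 exceeded number 1 with ratios of 13.0 in GM-TNFa-DC, 5.33 in GM-DC and 1.10 in GM-MPP. The other probe set of the gene was also high on both number-2 dendritic cell arrays, with 4.37 and 8.91 in GM-TNFa-DC, 3.43 and 7.50 in GM-DC, and 3.42 and 3.50 in GM-MPP. On it GM-DC 1 lay below GM-MPP 2, so GM-DC and GM-MPP overlapped.

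Ptges, microsomal prostaglandin E synthase, acts next after Ptgs2 on the way to prostaglandin E2, and its levels followed the same arrays. It was at 5.09 and 8.79 in GM-TNFa-DC, at 4.86 and 6.86 in GM-DC, and at 4.82 and 5.02 in GM-MPP. On number 1 the dendritic cells exceeded the progenitors by only 0.27 in GM-TNFa-DC and 0.04 in GM-DC, while number 2 exceeded number 1 by 13.0-fold in GM-TNFa-DC and 3.99-fold in GM-DC. The remaining probe sets of Ptges were also higher on number 2, by 6.65-fold and 11.6-fold in GM-TNFa-DC and by 2.76-fold and 4.47-fold in GM-DC. On these the number-1 arrays of GM-TNFa-DC and GM-DC lay below both progenitor arrays. They were at 4.48 and 4.48 against 4.61 and 4.82, and at 3.94 and 3.41 against 4.03 and 4.34. On them both dendritic cell groups overlapped GM-MPP. After each profile was centred on its own mean, Ptgs2 and Ptges differed by a root mean square of 0.35 over the 6 arrays, against 1.07 or more between Ptgs2 and each of the other 6 enzymes. They were the 2 enzymes of 8 that were at least 2-fold higher on number 2 in both dendritic cell groups, as were 3.2% of all genes, and Ptgs2 was also among the 0.885% of genes at least 4-fold higher there.

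**Figure D2:**
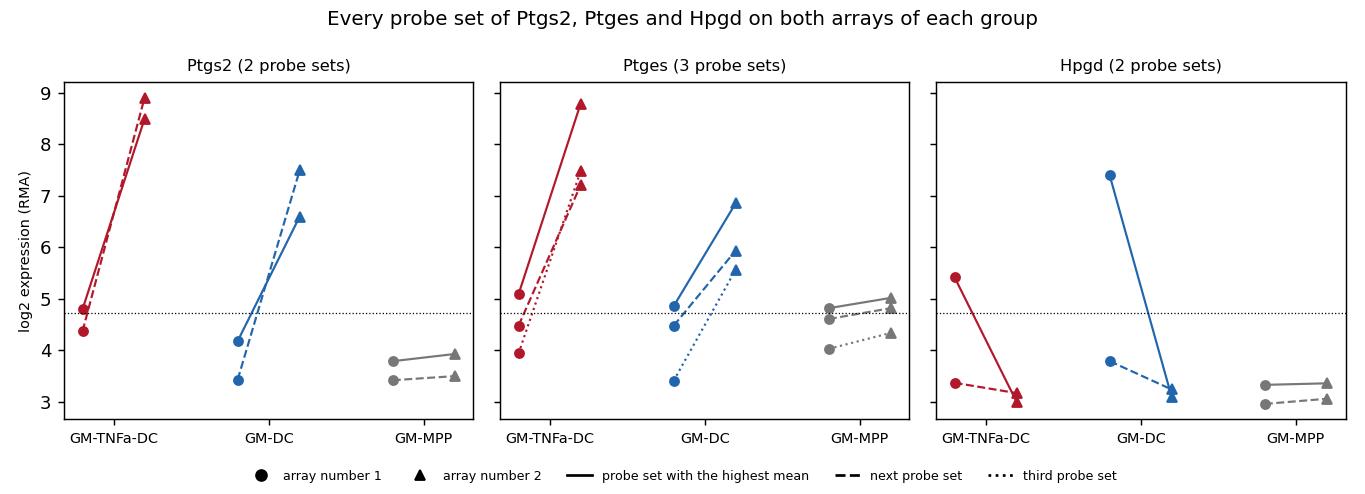
Log2 expression (y axis) of every probe set of Ptgs2, Ptges and Hpgd in the 3 groups (x axis), with a line joining the number-1 (circle) to the number-2 array (triangle) of a group and a line style for each probe set. All Ptgs2 and Ptges probe sets are higher on number 2 in GM-TNFa-DC and GM-DC, the listed Hpgd values are higher on number 1 there, and the GM-MPP lines are nearly flat.

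The promoters of this pair are shown because both genes were high on the same arrays. They were read from RefSeq on GRCm38.p6 from 250 bases before to 50 after the start of transcription, 5′ to 3′ on the strand of the gene, in a table that held 7 of the 9 enzymes. Ptgs2 lies on the plus strand at chr1:150099781-150100080 and Ptges on the minus strand at chr2:30903248-30903547. Capitals mark, in Ptgs2, a C/EBP motif (TTGCNNAA), the core of a cAMP response element (TGACG, read on the other strand) and an E box (CACGTG), and in Ptges the GC boxes (GGGCGG).
Ptgs2: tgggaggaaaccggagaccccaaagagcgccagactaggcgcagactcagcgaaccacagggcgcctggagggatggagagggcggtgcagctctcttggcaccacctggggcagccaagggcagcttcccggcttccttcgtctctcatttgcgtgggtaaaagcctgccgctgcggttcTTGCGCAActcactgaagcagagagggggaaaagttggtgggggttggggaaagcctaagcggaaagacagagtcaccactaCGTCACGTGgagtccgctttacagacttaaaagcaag
Ptges: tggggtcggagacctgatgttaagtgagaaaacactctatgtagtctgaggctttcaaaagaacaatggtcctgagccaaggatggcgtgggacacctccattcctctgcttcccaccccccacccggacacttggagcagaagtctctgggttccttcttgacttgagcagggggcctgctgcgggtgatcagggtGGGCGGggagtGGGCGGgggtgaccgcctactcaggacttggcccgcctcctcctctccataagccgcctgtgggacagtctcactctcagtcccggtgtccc

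Both strands were searched, and the cAMP response element core and the E box of Ptgs2 share bases in the last run of capitals. Both lie after the start of transcription, beginning at base 14 and base 17. Among 32841 promoters of the same length, 10.8% held the C/EBP letters, 20.8% the cAMP response element core, 7.15% the E box and 35.7% the GC box. Ptges held 2 GC boxes and Ptgs2 held 1, which is left in lower case. The motifs were not limited to this pair, as Alox5 held 1 GC box and Hpgds 1 C/EBP match. A TATA motif (TATAAA) was also searched, and it was found 2 times in Tbxas1 and not in Ptgs2 or Ptges. Such matches describe letters and do not show binding.

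For the effect of adding TNFa, Ptgs2 was higher in GM-TNFa-DC than in GM-DC on both array numbers, by 0.62 on number 1 and 1.9 on number 2 on the log2 scale. The number-1 levels, 4.80 and 4.18, were near or below the array medians of 4.75 and 4.74, and so close to background. The pooled log2 difference of Ptgs2 was 1.26 ± 1.32 (SE), with a 95% interval of -2.03 to 4.55 (limma adjusted p = 1.00). Ptges too was near the median on number 1, at 5.09 and 4.86. Its other probe sets were below the median there, at 4.48 in both groups and at 3.94 and 3.41. The Ptges difference was 0.23 on number 1, 1.93 on number 2 and 1.08 ± 1.26 pooled (95% interval -2.05 to 4.22, limma adjusted p = 1.00). The spread between array numbers within a group was larger than these differences, and the sign of both turned without GM-TNFa-DC 2, to -0.59 for Ptgs2 and -0.77 for Ptges. Against GM-MPP, the log2 difference of GM-TNFa-DC was 2.79 ± 1.32 for Ptgs2 (adjusted p = 0.259) and 2.02 ± 1.26 for Ptges (adjusted p = 0.376) by limma. In GM-DC against GM-MPP it was 1.53 ± 1.32 for Ptgs2 (adjusted p = 0.565) and 0.94 ± 1.26 for Ptges (adjusted p = 0.725) by limma. Without GM-DC 2 the last values were 0.32 and -0.06, and without GM-TNFa-DC 2 the differences of GM-TNFa-DC against GM-MPP were 0.94 for Ptgs2 and 0.17 for Ptges.

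Markers of other cells also differed by array number. Of 8 monocyte and macrophage markers, Cd14, the lipopolysaccharide co-receptor, was at 8.50 and 13.18 in GM-TNFa-DC, 7.48 and 12.50 in GM-DC, and 8.24 and 9.25 in GM-MPP. Their summed linear levels on number 1 and number 2 were 13600 and 26700 in GM-TNFa-DC, 19000 and 22800 in GM-DC, and 4250 and 6290 in GM-MPP, and none of the 8 lay below the array median on both arrays of a group. The sum was larger on number 2 in each group, though only 5 of the 8 in GM-TNFa-DC, 4 in GM-DC and 6 in GM-MPP were themselves higher there. Mrc1, Mertk and Marco were lower on number 2 in both dendritic cell groups. Mrc1 was at 10.22 and 6.73 in GM-TNFa-DC and 11.85 and 8.48 in GM-DC. Of 10 dendritic cell markers the summed levels ran the other way in the dendritic cell groups, at 59100 and 17700 in GM-TNFa-DC and at 43100 and 14100 in GM-DC, with 536 and 610 in GM-MPP, and 0 of the 10 were higher on number 2 in either dendritic cell group. Of 8 measured megakaryocyte and platelet markers, the sums were 1210 and 8450, 1130 and 8500, and 1600 and 3950 in the same order of groups, with Pf4 at 12.81 and 12.79 on the number-2 dendritic cell arrays and Gp1bb below the median on both GM-DC arrays. On number 2, 4 of these 8 were higher in GM-TNFa-DC, 5 in GM-DC and 8 in GM-MPP. The largest rises there were those of Pf4 and of Ppbp, at 3.50 and 9.60 in GM-TNFa-DC and 3.45 and 9.79 in GM-DC. Itga2b, Gp9 and Vwf were lower on number 2 in both dendritic cell groups, Vwf at 8.89 and 7.78 in GM-TNFa-DC and 9.61 and 7.88 in GM-DC. The part of these cells in the Ptgs2 and Ptges levels was not tested.

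Tbxas1, thromboxane synthase, converts prostaglandin H2 to thromboxane A2 and is known from platelets and macrophages. Its level was 8.37 and 9.52 in GM-TNFa-DC, 8.96 and 9.83 in GM-DC, and 8.0 and 8.03 in GM-MPP. All 4 dendritic cell arrays were above the progenitors, and number 2 was again the higher array in both dendritic cell groups, by 2.22-fold and 1.82-fold. The log2 difference of GM-DC against GM-MPP was 1.38 ± 0.47, with an unadjusted p of 0.0273 and an adjusted p = 0.171 by limma. That of GM-TNFa-DC against GM-MPP was 0.93 ± 0.47 (limma adjusted p = 0.281). GM-TNFa-DC and GM-DC overlapped, with a difference of -0.45 and a 95% interval of -1.61 to 0.71, which turned to 0.13 without GM-TNFa-DC 1.

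Hpgds, the hematopoietic prostaglandin D synthase of mast cells and some antigen-presenting cells, stayed near the array median in all groups. It was at 4.12 and 4.54 in GM-TNFa-DC, at 4.88 and 4.93 in GM-DC, and at 5.06 and 4.73 in GM-MPP. Both GM-TNFa-DC arrays were the lowest, with a log2 difference of -0.57 ± 0.20 from GM-DC, an unadjusted p of 0.0331 and an adjusted p = 1.00 by limma. Against GM-MPP it was -0.56 ± 0.20 (unadjusted p of 0.0353, limma adjusted p = 0.166). GM-DC and GM-MPP overlapped, and their difference of 0.01 had a 95% interval of -0.50 to 0.52. At such levels a difference says little about the amount of RNA.

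In the leukotriene branch, Alox5, which encodes 5-lipoxygenase, had its highest level in the progenitors and its lowest in GM-TNFa-DC. It was at 7.39 and 8.28 in GM-TNFa-DC, 8.80 and 8.78 in GM-DC, and 9.30 and 9.38 in GM-MPP. The arrays of no 2 groups overlapped. The log2 difference of GM-TNFa-DC against GM-MPP was -1.51 ± 0.32, a ratio of 0.352, with an adjusted p = 0.0549 by limma, just above the threshold of 0.05 and so not called. It passed with median centring (limma adjusted p = 0.0426), without dim genes (0.0386) and with a prior without trend (0.0481). With array number as block it passed as well (limma adjusted p = 0.0390). It did not pass with a second quantile normalization (limma adjusted p = 0.0759), only the 4 arrays compared (0.0936) or a robust prior (0.0502). Nor did it with probe sets averaged (0.0560) or all kept (0.0630). The difference was -1.06 without GM-TNFa-DC 1 and -1.95 without GM-TNFa-DC 2. Against GM-DC the difference of GM-TNFa-DC was -0.96 ± 0.32, at -1.41 on number 1 and -0.50 on number 2, with an unadjusted p of 0.0275 and an adjusted p = 1.00 by limma. The step between the neighbours GM-DC and GM-MPP was -0.55 ± 0.32 (95% interval -1.35 to 0.25, limma adjusted p = 0.394).

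Alox5ap encodes FLAP, the membrane protein that presents arachidonic acid to 5-lipoxygenase, and its groups had the same order as those of Alox5. It was at 11.62 and 12.33 in GM-TNFa-DC, 12.45 and 12.37 in GM-DC, and 12.67 and 12.94 in GM-MPP. Its level reached the 99.4 percentile of all probe sets in GM-TNFa-DC, the 99.5 percentile in GM-DC and the 99.7 percentile in GM-MPP, and differences can be compressed in that range. The difference of GM-TNFa-DC against GM-MPP was -0.83 ± 0.26 (unadjusted p of 0.0219, limma adjusted p = 0.129). Against GM-DC it was -0.43 ± 0.26, nearly all of it from number 1, with -0.83 there and -0.04 on number 2. GM-DC against GM-MPP differed by -0.40 ± 0.26 (limma adjusted p = 0.455). Neutrophils and their precursors also carry both genes, and the summed linear level of 10 neutrophil markers was 4900 and 3550 in GM-TNFa-DC and 14000 and 3730 in GM-DC, against 78800 and 91800 in GM-MPP, with Mpo below the array median on both GM-TNFa-DC arrays. The part of such cells in the Alox5 and Alox5ap levels, and in that of Lta4h given below, was not tested.

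Ltc4s, leukotriene C4 synthase, joins glutathione to leukotriene A4 and so starts the cysteinyl leukotrienes. Unlike Alox5 and Alox5ap it was higher in both dendritic cell groups, at 8.68 and 9.54 in GM-TNFa-DC and 7.98 and 9.41 in GM-DC, against 7.34 and 5.73 in GM-MPP. All 4 dendritic cell arrays were above both progenitor arrays, and the progenitor arrays lay far apart. The log2 difference was 2.58 ± 0.71 for GM-TNFa-DC against GM-MPP (5.98-fold, unadjusted p of 0.0124, limma adjusted p = 0.0960) and 2.16 ± 0.71 for GM-DC against GM-MPP (4.48-fold, unadjusted p of 0.0249, limma adjusted p = 0.162). On number 1 these were 1.35 and 0.64, and on number 2 they were 3.81 and 3.68. Without GM-MPP 1 they were 3.39 and 2.97, and without GM-MPP 2 they were 1.78 and 1.36. GM-TNFa-DC and GM-DC overlapped, with a difference of 0.42 ± 0.71 that turned to -0.30 without GM-DC 1 and to -0.01 without GM-TNFa-DC 2. Mast cells and basophils are known for Ltc4s, and the summed level of 9 measured markers of these cells was lower in the dendritic cells, at 411 and 406 in GM-TNFa-DC and 578 and 357 in GM-DC, against 2140 and 2160 in GM-MPP, with Fcer1a, Tpsb2 and Tpsab1 below the array median in each group and Ms4a2 in both dendritic cell groups. The part of such cells in the Ltc4s level was not tested.

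Alox15, a 12/15-lipoxygenase in mice that is known from eosinophils and resident macrophages, was dim. Its level was 5.00 and 4.74 in GM-TNFa-DC, 6.20 and 4.71 in GM-DC, and 5.66 and 5.29 in GM-MPP. GM-DC 1 was the highest array of all and GM-DC 2 the lowest, so GM-DC overlapped both other groups. The log2 difference of GM-DC against GM-MPP was -0.02 ± 0.49, or -0.77 without GM-DC 1, 0.72 without GM-DC 2 and 0.16 without GM-MPP 1. That of GM-TNFa-DC against GM-DC was -0.58 ± 0.49 (95% interval -1.79 to 0.62) and turned to 0.16 without GM-DC 1. Beside it, the summed level of 5 eosinophil markers was 1220 and 254 in GM-TNFa-DC, 2250 and 293 in GM-DC, and 540 and 433 in GM-MPP, with Epx, eosinophil peroxidase, at 8.66 on GM-DC 1 and 5.54 on GM-DC 2. Ccr3 and Il5ra of that list were below the array median in all groups. The part of such cells in the Alox15 level was not tested.

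**Figure D3:**
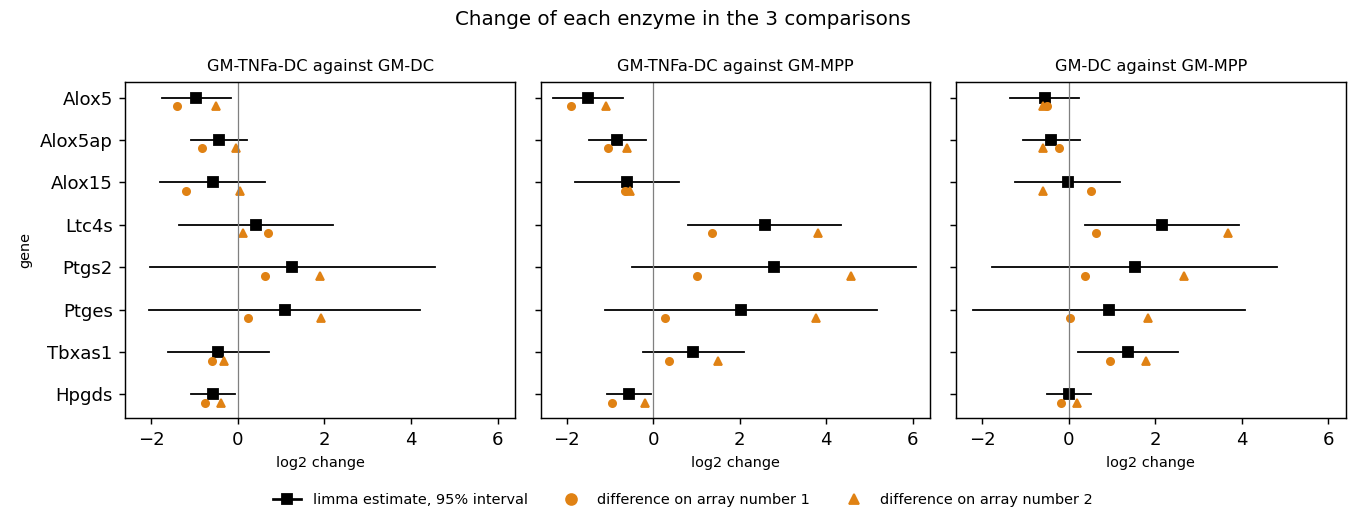
Log2 change (x axis) of each enzyme (y axis) in the 3 comparisons: squares are limma estimates with 95% intervals, and circles and triangles are the differences on array numbers 1 and 2. The intervals of Ptgs2 and Ptges are the widest and include 0 in each comparison, while before adjustment 0 is outside those of Alox5, Alox5ap, Ltc4s and Hpgds in GM-TNFa-DC against GM-MPP, Ltc4s and Tbxas1 in GM-DC against GM-MPP, and Alox5 and Hpgds in GM-TNFa-DC against GM-DC.

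Over the 8 enzymes, the arrays of the groups did not overlap for 0 higher and 3 lower in GM-TNFa-DC against GM-DC, beside 14.9% and 10.6% of all genes. In GM-TNFa-DC against GM-MPP they did not overlap for 4 higher and 4 lower, beside 31.6% and 26.1% of all genes. In GM-DC against GM-MPP the counts were 3 higher and 2 lower, beside 28.3% and 27.0% of all genes. The leukotriene-forming pair Alox5 and Alox5ap and the dim Hpgds were the 3 lower in GM-TNFa-DC than in GM-DC. Each gene was counted on its probe set with the highest mean. On the remaining probe sets Ptges in GM-TNFa-DC overlapped GM-MPP, and so did Ptgs2 in GM-DC. With 8 genes these counts are a description.

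The genes most like the 3 enzymes with a range over 2 were taken from the whole array, by the root mean square difference of centred log2 profiles over the 6 arrays. For Ptgs2 they were Susd2 (0.30), Hilpda (0.34), a lipid droplet protein induced by hypoxia, and Adgb (0.38). Hamp, which encodes the iron hormone hepcidin (0.21), Susd2 (0.23) and Smpd5 (0.28) were closest to Ptges. Those closest to Ltc4s were Fzd7, a Wnt receptor (0.24), Sh3bgrl2 (0.31) and Snx7 (0.40). Hilpda was at 7.31 and 10.72 in GM-TNFa-DC, 6.96 and 9.94 in GM-DC, and 6.42 and 6.47 in GM-MPP. That it was high on both number-2 dendritic cell arrays follows from its choice by likeness to Ptgs2.

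The remaining genes of the pathway were described from 5 lists, of which 46 of 52 genes were measured. In GM-TNFa-DC against GM-DC, 0 passed and 0 had an unadjusted p under 0.05 by limma, and their median log2 difference was -0.06. In GM-TNFa-DC against GM-MPP, 3 rose and 1 fell, with a median of 0.15, and in GM-DC against GM-MPP 2 rose and 0 fell, with a median of 0.14. Of all genes, 2.77% rose and 4.26% fell in the first of these, and 1.87% rose and 2.63% fell in the second. Leaving out single arrays moved both counts, to 0 without GM-MPP 1 or GM-MPP 2 in either comparison, to 0 without GM-DC 1 in GM-DC against GM-MPP and without GM-TNFa-DC 1 in GM-TNFa-DC against GM-MPP. In GM-TNFa-DC against GM-MPP the count was 2 without GM-TNFa-DC 2. In GM-DC against GM-MPP it was 4 without either GM-TNFa-DC array, without dim genes or with only the 4 arrays compared.

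**Figure D4:**
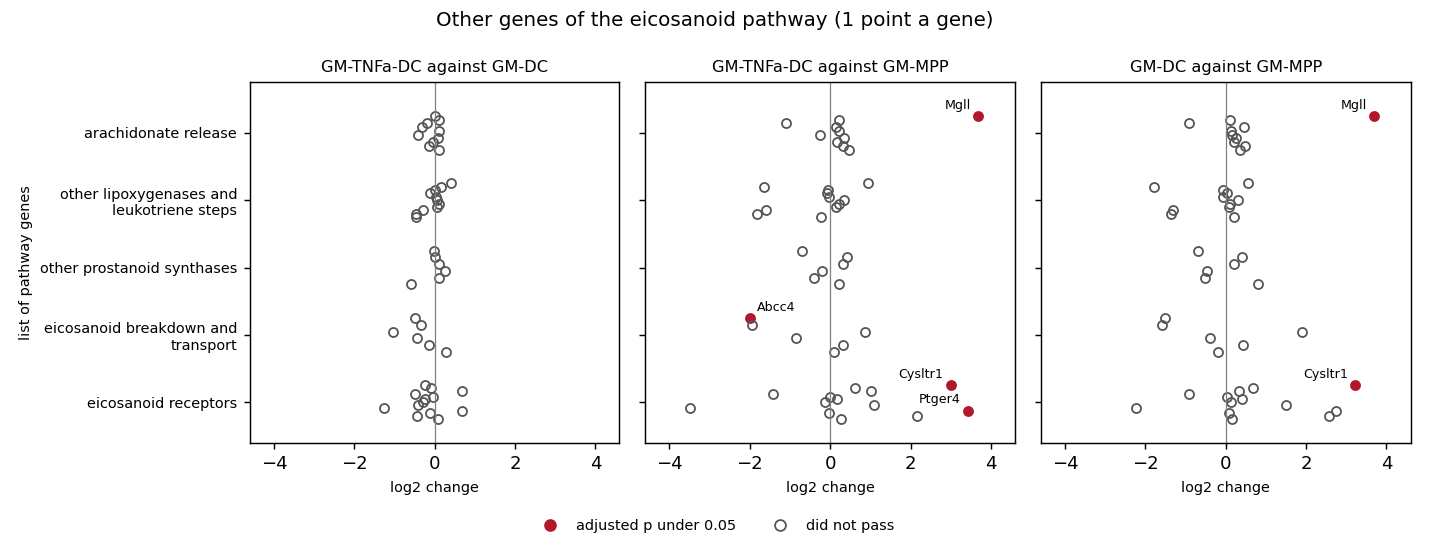
Log2 change (x axis) of 46 further genes of the pathway, 1 point a gene, in 5 lists (y axis) and the 3 comparisons. Filled points passed the limma threshold: Mgll and Cysltr1 in both comparisons with GM-MPP, and Ptger4 and Abcc4 in GM-TNFa-DC against GM-MPP.

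Among 10 genes that release arachidonic acid, Mgll rose in both dendritic cell groups. Mgll encodes monoglyceride lipase, which frees arachidonic acid from an endocannabinoid. It was at 10.64 and 9.92 in GM-TNFa-DC and 10.72 and 9.85 in GM-DC, against 7.26 and 5.92 in GM-MPP. The dendritic cell arrays all lay above the progenitors, with a log2 change of 3.69 ± 0.55 in each comparison (12.9-fold, limma adjusted p = 0.0244 for GM-TNFa-DC and 0.0288 for GM-DC), and all 4 probe sets of the gene were higher. Leaving out any 1 of the 4 arrays compared took the call away in both comparisons, and the change was 4.36 without GM-MPP 1 and 3.02 without GM-MPP 2 in each. With the mean of its probe sets it was 2.80 in GM-TNFa-DC and 2.84 in GM-DC and kept the call. Pla2g4a, the cytosolic phospholipase A2 that is a main supplier of arachidonic acid, was at 7.28 and 8.92 in GM-TNFa-DC, 8.09 and 8.92 in GM-DC, and 8.34 and 8.38 in GM-MPP, and was picked out for its role after its values were seen.

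In the 13 measured receptors, Cysltr1 rose in both dendritic cell groups and Ptger4 rose in GM-TNFa-DC against GM-MPP. Cysltr1 encodes the receptor for the leukotrienes that follow from Ltc4s, and it was at 7.33 and 7.80 in GM-TNFa-DC and 7.39 and 8.19 in GM-DC, against 3.97 and 5.15 in GM-MPP. Its log2 change was 3.0 ± 0.48 in GM-TNFa-DC (limma adjusted p = 0.0270) and 3.23 ± 0.48 in GM-DC (limma adjusted p = 0.0280), with both probe sets higher. As 1 progenitor array was below the array median, the fold is not exact. Ptger4, a prostaglandin E2 receptor that raises cAMP, was at 10.71 and 8.97 in GM-TNFa-DC and 9.51 and 8.82 in GM-DC, against 6.21 and 6.62 in GM-MPP. All 4 dendritic cell arrays were higher. The log2 change in GM-TNFa-DC was 3.42 ± 0.60 (10.7-fold, limma adjusted p = 0.0340), or 2.55 without GM-TNFa-DC 1 and 4.29 without GM-TNFa-DC 2. In GM-DC against GM-MPP the Ptger4 difference was 2.75 ± 0.60 (limma adjusted p = 0.0683), and GM-TNFa-DC differed from GM-DC by 0.67 ± 0.60. Leaving out any 1 of the 4 arrays compared took the Cysltr1 calls away, with changes of 2.41 in GM-TNFa-DC and 2.64 in GM-DC without GM-MPP 1, and 3.59 and 3.82 without GM-MPP 2. In turn the Ptger4 call was lost without any 1 of the arrays except GM-TNFa-DC 2, and with only the 4 arrays compared.

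Other receptors did not pass. Ptgir, the prostacyclin receptor, was picked out after its values were seen, at 9.45 and 8.84 in GM-TNFa-DC and 10.27 and 8.87 in GM-DC, against 6.91 and 7.06 in GM-MPP. Its log2 difference from GM-MPP was 2.16 ± 0.49 in GM-TNFa-DC (limma adjusted p = 0.0622) and 2.58 ± 0.49 in GM-DC (limma adjusted p = 0.0504). It passed in both without dim genes, at limma adjusted p = 0.0462 and 0.0392, and with array number as block, at 0.0355 and 0.0295. In GM-TNFa-DC it also passed with only the 4 arrays compared (0.0364) and without GM-DC 1 or GM-DC 2 (0.0360 and 0.0362), and in GM-DC with a second quantile normalization (0.0438), with a robust prior (0.0482), with a prior without trend (just under the threshold, 0.05 when rounded) and without GM-DC 2 (3.28, 0.0457). Ptger3, a prostaglandin E2 receptor that lowers cAMP, was likewise picked out, at 5.38 and 3.49 in GM-TNFa-DC and 7.48 and 3.92 in GM-DC, against 8.33 and 7.53 in GM-MPP. Its difference in GM-TNFa-DC against GM-MPP was -3.50 ± 1.23 (limma adjusted p = 0.156), with its brighter probe set below the array median on GM-TNFa-DC 2 and GM-DC 2 and the other probe set below it on all arrays. The Ptger3 difference passed with array number as block (limma adjusted p = 0.0379) and was -1.87 with the mean of its probe sets.

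Among 6 genes of breakdown and transport, Abcc4, an exporter of prostaglandins, fell in GM-TNFa-DC against GM-MPP, by 2.00 ± 0.32 on the log2 scale (limma adjusted p = 0.0283). Its level was 6.11 and 6.99 in GM-TNFa-DC and 7.09 and 6.97 in GM-DC, against 8.63 and 8.46 in GM-MPP. The difference of GM-DC from GM-MPP was -1.52 ± 0.32 (limma adjusted p = 0.0659), and that of GM-TNFa-DC from GM-DC was -0.48 ± 0.32. The progenitor arrays were the highest, and the call was lost without any 1 array except GM-TNFa-DC 2, and with only the 4 arrays compared. Hpgd, which encodes the enzyme that inactivates prostaglandin E2, was picked out after its values were seen because its arrays ran opposite to those of Ptgs2 and Ptges. It was at 5.42 and 3.0 in GM-TNFa-DC, 7.40 and 3.09 in GM-DC, and 3.33 and 3.36 in GM-MPP. Number 1 exceeded number 2 by 5.35-fold in GM-TNFa-DC and 19.9-fold in GM-DC, and its other probe set, which was below the array median throughout, by 1.15-fold and 1.46-fold. The log2 difference of GM-DC against GM-MPP was 1.9 ± 1.48 (limma adjusted p = 0.520) and turned to -0.26 without GM-DC 1.

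None of 11 further lipoxygenase and leukotriene genes passed. Mgst2, a microsomal enzyme that can also make leukotriene C4, was at 7.19 and 10.88 in GM-TNFa-DC, 7.90 and 11.08 in GM-DC, and 10.96 and 10.73 in GM-MPP. Its number-1 dendritic cell arrays were low and its number-2 arrays at the level of the progenitors, and the log2 difference of GM-TNFa-DC against GM-MPP was -1.81 ± 1.46 (limma adjusted p = 0.486), or 0.04 without GM-TNFa-DC 1. Alox12, the platelet lipoxygenase, was at 3.65 and 3.64 in GM-TNFa-DC and 3.82 and 3.18 in GM-DC, against 4.49 and 6.08 in GM-MPP (-1.79 ± 0.52 in GM-DC against GM-MPP, limma adjusted p = 0.127). Without GM-MPP 1 this was -2.58, without GM-MPP 2 it was -0.99, and with the mean of its probe sets -1.09. Alox12 was above the array median on GM-MPP 2 alone, and its other probe set was below it on all arrays. Lta4h, which makes leukotriene B4 from leukotriene A4 and was picked out for its role after its values were seen, was at 10.92 and 10.51 in GM-TNFa-DC and 11.50 and 10.49 in GM-DC, against 12.33 and 12.28 in GM-MPP. All 4 dendritic cell arrays were below both progenitor arrays, as for Alox5 and Alox5ap, and the difference from GM-MPP was -1.59 ± 0.36 in GM-TNFa-DC (limma adjusted p = 0.0613) and -1.31 ± 0.36 in GM-DC (limma adjusted p = 0.111), with 2 of 3 probe sets lower. In GM-TNFa-DC it passed without dim genes (limma adjusted p = 0.0459), with only the 4 arrays compared (0.0370) and without GM-DC 1 or GM-DC 2 (0.0384 and 0.0362). With array number as block, Lta4h passed in GM-TNFa-DC too (limma adjusted p = 0.0292). With the mean of its probe sets the differences were -0.79 in GM-TNFa-DC and -0.46 in GM-DC, and without GM-DC 1 or GM-DC 2 that of GM-DC was -1.82 or -0.80.

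None of 6 further prostanoid synthases passed either. Ptgis, prostacyclin synthase, had its highest level on GM-DC 1, with 3.98 and 3.98 in GM-TNFa-DC, 5.26 and 3.89 in GM-DC, and 3.85 and 3.70 in GM-MPP (0.80 ± 0.42 in GM-DC against GM-MPP, limma adjusted p = 0.346, and 1.49 without GM-DC 2). Apart from GM-DC 1, all its levels were below the array median. Akr1c18, an aldo-keto reductase, was highest on GM-MPP 1, at 5.37 and 5.63 in GM-TNFa-DC, 5.68 and 5.33 in GM-DC, and 7.03 and 5.35 in GM-MPP. Its log2 difference in GM-TNFa-DC against GM-MPP was -0.69 ± 0.54 (limma adjusted p = 0.470), or 0.15 without GM-MPP 1.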

How the data were processed

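Gene expression was measured on 6 Affymetrix arrays, 2 a group. The deposited values were made by the authors with RMA in Bioconductor, per the labels and the submitters' processing notes. RMA corrects background, quantile-normalizes arrays and summarizes the probes of a probe set. The deposited log2 scale was inferred from the values, while the RMA version, and which arrays it ran on jointly, is not given in the sources.

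Of 45101 probe sets, 64 were controls, and 34945 had 1 gene symbol, 932 several and 9160 none in the platform annotation. Symbols were updated through Entrez identifiers to those of RefSeq (GRCm38.p6). A gene was represented by its probe set with the highest mean over the 6 arrays, which gave 18193 genes. Comparisons used limma 3.58.1 in R 4.3.3, with an intensity trend, 3 groups sharing 1 spread estimate with 3 residual degrees of freedom, and Benjamini-Hochberg adjustment over all genes at a threshold of 0.05. The fit was tested on simulated data, where only planted changes larger than any pooled difference of the enzymes had to be called. This does not tell its power at the sizes seen for the enzymes. Errors after ± are moderated standard errors. Tables were prepared with Python 3.11.15. The number of arrays limits the precision.

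All enzymes and all their single-symbol probe sets were named. From each list of further pathway genes, called genes were named, or the 2 with the largest difference where none was called. Single cell markers were picked out after their values were seen. The enzymes and lists were chosen with earlier results of these data known. Among the settings varied were normalization (quantiles anew, medians aligned), dim genes dropped (no group mean above 5.66, which left 6 of the 8 enzymes), averaging or keeping every probe set, the prior (no trend, robust), fits on 4 arrays, fits with array number as block, fits lacking 1 array, and differences per array number.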

Additional observations from a re-analysis of the deposited data

How the results depend on the processing

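Among refitted values of the 8 enzymes, 336 kept direction and side of the threshold, 13 turned sign and 5 passed anew, all 5 for Alox5 in GM-TNFa-DC against GM-MPP. Differences per array number have no test, and 3 of 48 had the opposite sign to the pooled value: Alox15 in GM-DC against GM-MPP on number 1 (0.53), Alox15 in GM-TNFa-DC against GM-DC on number 2 (0.04) and Hpgds in GM-DC against GM-MPP on number 1 (-0.18). No enzyme was called in GM-TNFa-DC against GM-DC or in GM-DC against GM-MPP under any alternative run. In GM-TNFa-DC against GM-MPP 1 of 8, Alox5, was called with median centring, without dim genes, with a prior without trend and with the replicate block, and 0 to 1 with 1 array left out. Array numbers are not said to pair samples (correlations of number deviations of 0.806, 0.105 and 0.0719). With the replicate block, Alox5 had an adjusted p = 0.0390, and further pathway genes called went to 10 in GM-TNFa-DC against GM-MPP and to 4 in GM-DC against GM-MPP. In GM-DC against GM-MPP it was also 4 without dim genes and with only the 4 arrays compared, and both counts ranged from 0 to 4 with 1 array left out. Hpgds turned to -0.07 with a second quantile normalization and to -0.04 with median centring in GM-DC against GM-MPP. With 1 array left out, log2 differences in GM-DC against GM-MPP ranged from -0.77 to 0.72 for Alox15, -0.06 to 1.94 for Ptges, -0.15 to 0.17 for Hpgds and -0.26 to 4.05 for Hpgd. In GM-TNFa-DC against GM-MPP they ranged from -3.65 to 0.04 for Mgst2 and -1.53 to 0.15 for Akr1c18. In GM-TNFa-DC against GM-DC they ranged from -1.32 to 0.16 for Alox15, -0.30 to 1.13 for Ltc4s, -0.59 to 3.11 for Ptgs2, -0.77 to 2.93 for Ptges and -1.02 to 0.13 for Tbxas1. The cause of these turns was not tested. Where 1 array remained in a group, its spread was taken from the remaining groups. Alox15 and Hpgds have no value without dim genes.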
